A study of Homo sapiens with 60 samples.

Results

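The transcripts described here are those of 5 metallothionein genes (MT1E, MT1F, MT1G, MT1X and MT2A), of MTF1, the transcription factor that switches metallothionein genes on, and of 3 zinc transporters, the exporter SLC30A1 and the importers SLC39A10 and SLC39A4. They were chosen by name, as the rows of the deposited table whose Ensembl identifier maps to these symbols, which gave 9 of 60675 identifiers. All 9 passed the filter on low counts, as did 17049 genes in all. Their levels were measured by RNA sequencing in HT29, a human colorectal adenocarcinoma line of epithelial origin, 24 h after cells were given a hot-water extract of medicinal herbs or vehicle. The single herbs were Saposhnikoviae Radix and Menthae Herba (mint), and the formulas of several herbs were Okbyeongpung-san, Soyo-san, Guibi-tang, Saengmaek-san and Soshiho-tang, each at a high (500 µg/mL), a medium (100 µg/mL) and a low (20 µg/mL) dose. Vehicle was DMSO, at 0.1% in the sample labels and 2% in the series' description. Vehicle and each dose of 6 extracts had 3 libraries, which made 19 groups and 57 libraries, and Soshiho-tang had 1 library per dose and entered no test.

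Metallothioneins are small, cysteine-rich proteins that bind zinc and copper in the cytosol and buffer free zinc. MTF1 senses free zinc, moves to the nucleus and binds short metal response elements in the promoters of metallothionein genes and of SLC30A1, so these genes are known to rise together when zinc rises. SLC30A1 carries zinc out of the cell across the plasma membrane, whereas SLC39A4, the main zinc importer of the intestinal epithelium, and SLC39A10 carry it in.

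The 5 metallothionein genes lie together on chromosome 16 within 76.0 kb (GRCh38, chr16:56608199-56684196 in GENCODE 29), where 4 are on the plus strand and MT1G on the minus strand. MTF1 (chr1:37809567-37859620) and SLC30A1 (chr1:211571568-211578742) are on the minus strand of chromosome 1, and SLC39A10 is at chr2:195575977-195737702 on the plus strand. Metallothionein genes are close relatives, and in expected counts a read that fits more than one gene is shared out. Values that were not whole numbers occurred in 6 of the 60 libraries for MT1G, 3 for MT1X, 2 for MT2A, 1 for MT1E and 0 for MT1F. How reads that fit several relatives were assigned could not be checked further.

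Promoter sequences were available for MT2A, MT1X, SLC30A1, MTF1 and SLC39A10, that is for 5 of the 9 genes, in RefSeq on GRCh38.p14. The 250 bases before the RefSeq start of MT2A (chr16:56608334-56608583, plus strand), MT1X (chr16:56682220-56682469, plus strand) and SLC30A1 (chr1:211579162-211579411, minus strand) are shown because metal response elements are the part that these genes are known to share. GENCODE 29 places the start of MT2A before this window and that of MT1X inside it. For SLC30A1 it places the start at chr1:211578742, downstream of the RefSeq start at chr1:211579161. Each runs 5′ to 3′ on the strand of its gene, with matches to the metal response element core (TGCACNC or TGCGCNC, on either strand) in capitals.
MT2A: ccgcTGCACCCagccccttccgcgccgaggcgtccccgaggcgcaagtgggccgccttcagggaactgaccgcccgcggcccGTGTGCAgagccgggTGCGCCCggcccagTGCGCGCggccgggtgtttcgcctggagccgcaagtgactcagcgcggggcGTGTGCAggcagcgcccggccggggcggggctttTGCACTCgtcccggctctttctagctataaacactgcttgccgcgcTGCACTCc
MT1X: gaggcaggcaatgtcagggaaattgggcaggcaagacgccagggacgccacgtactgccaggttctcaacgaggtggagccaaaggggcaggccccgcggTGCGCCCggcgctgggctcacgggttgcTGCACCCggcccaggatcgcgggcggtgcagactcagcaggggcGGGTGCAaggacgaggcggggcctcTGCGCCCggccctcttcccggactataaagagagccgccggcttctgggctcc
SLC30A1: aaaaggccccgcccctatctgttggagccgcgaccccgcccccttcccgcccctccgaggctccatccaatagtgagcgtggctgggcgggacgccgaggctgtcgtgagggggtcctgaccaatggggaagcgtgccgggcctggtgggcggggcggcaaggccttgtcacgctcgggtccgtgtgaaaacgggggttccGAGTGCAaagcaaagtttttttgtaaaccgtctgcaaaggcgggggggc

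The MT2A window held 7 matches to the metal response element core, the MT1X window 4 and the SLC30A1 window 1, and those of MTF1 and SLC39A10 (2 start sites) held 0. Of 35116 RefSeq promoter windows of the same length, 24.83% held at least 1 match and 0.37% held at least 4. Other short cores were searched in the same windows on both strands. One was the core of the xenobiotic response element (GCGTG), which the aryl hydrocarbon receptor is known to bind. It had 1 match in MT2A, where it overlapped a metal response element match, 0 in MT1X and 3 in SLC30A1. MTF1 had 2 and each of the 2 SLC39A10 windows 1, and 32.22% of all windows held at least 1. The antioxidant response element core (TGACNNNGC), known from NRF2 targets, had 1 match each in MT2A, MT1X and SLC30A1. It had 0 in MTF1 and in both SLC39A10 windows, and 10.91% of all windows held at least 1. Such matches are a description of the letters.

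**Figure D1:**
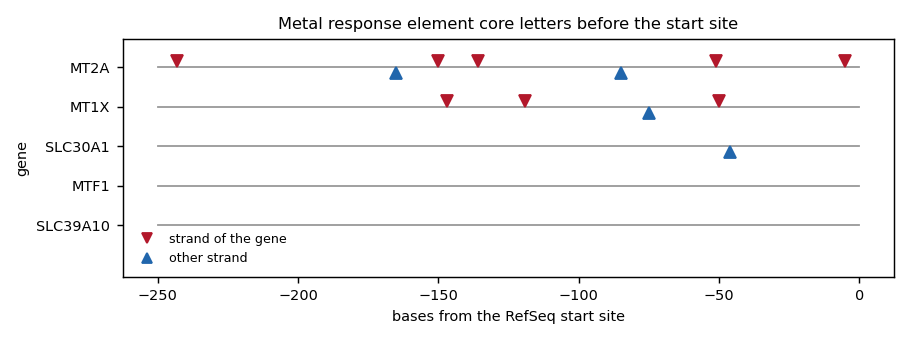
Positions of matches to the metal response element core in the 250 bases before the RefSeq start site of 5 genes; the horizontal axis is the distance from the start in bases, red triangles are matches on the strand of the gene and blue triangles matches on the other strand. MT2A has 7 matches, MT1X 4, SLC30A1 1, and MTF1 and SLC39A10 have 0.

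A library held between 19.5 and 41.9 counts in units of 1e6. Of 12 intestinal epithelial markers 11 averaged at least 1 CPM (counts per 1e6 counts), while the 6 fibroblast markers summed to 1.41 to 3.35 CPM and the 4 endothelial ones to 0.865 to 1.58 CPM per library. Among 6 leukocyte markers, PTPRC and CD3E were close to 0 (means of 0.0198 and 0.00576 CPM) and lysozyme (LYZ), which intestinal cells also make, gave nearly the whole sum. Mitochondrially encoded genes took 12.77% to 13.47% of counts in the vehicle libraries and 11.07% to 12.12% in those of Menthae Herba at the high dose, within 9.74% to 13.9% over all libraries. The libraries also fell into 31 earlier-numbered and 29 later-numbered ones, parted by the sign of the first principal component (12.8% of variance). The earlier part held all libraries of vehicle and of both single herbs, and the later part all those of Soyo-san, Okbyeongpung-san and Soshiho-tang. Those of Saengmaek-san and Guibi-tang were in both. The vehicle libraries carry a name prefix of their own, apart from the numbers of the extract libraries, and come first in the deposited table. Nothing in the labels says whether replicates were separate cultures, so p-values measure the spread between libraries, which may be technical.

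Menthae Herba at the high dose was the condition in which the metallothioneins stood apart. All 5 were lower than in vehicle and the importer SLC39A10 was higher, while MTF1, SLC30A1 and SLC39A4 did not pass the test. Thus 6 of the 9 genes were called, 5 lower and 1 higher (edgeR's quasi-likelihood test, Benjamini-Hochberg adjusted p under 0.05 over all genes), where 8.57% of all genes tested were called. The median log2 fold change was -0.78 over the 9 genes and -1.15 over the 5 metallothioneins, beside -0.0041 over all genes. Earlier results of these data had shown this fall, so the values below describe it further. In bulk RNA, less transcript in every cell and fewer cells with the transcript cannot be told apart.

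MT1E, a member of the MT1 group, had 41.6, 45.6 and 39.5 CPM in the vehicle libraries and 26.1, 22.6 and 25.3 CPM in the Menthae Herba libraries. The groups did not overlap, as was the case for 32.3% of all genes tested in this comparison. The means of 42.2 ± 3.10 and 24.7 ± 1.82 CPM (SD, n = 3 each) gave a log2 fold change of -0.78 ± 0.12 (SE; edgeR, adjusted p = 1.75e-05).

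MT2A had 17.7, 17.9 and 16.3 CPM in vehicle and 10.9, 8.90 and 9.98 CPM after Menthae Herba, again with no overlap. Its log2 fold change was -0.80 ± 0.15 (edgeR, adjusted p = 0.000445). The 95% interval of the log2 change ran from -1.02 to -0.53 for MT1E and from -1.11 to -0.49 for MT2A.

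MT1X, a further member of the MT1 group, had 2.22, 2.51 and 1.80 CPM in vehicle and 1.19, 0.928 and 0.824 CPM after Menthae Herba. It fell by 1.15 ± 0.18 on the log2 scale (edgeR, adjusted p = 7.84e-06), with no overlap. The 95% interval, -1.50 to -0.79, overlapped with those of MT1E and MT2A.

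MT1F and MT1G, also of the MT1 group, had few counts, 4 to 25 and 1 to 16 counts per library. MT1F had 0.571, 0.288 and 0.673 CPM in vehicle and 0.171, 0.203 and 0.214 CPM after Menthae Herba. For MT1G the values were 0.235, 0.209 and 0.275 CPM against 0.0569, 0.116 and 0.0305 CPM. Neither gene's groups overlapped, and both passed the test only narrowly, with log2 changes of -1.35 ± 0.42 (edgeR, adjusted p = 0.0335) and -1.75 ± 0.57 (edgeR, adjusted p = 0.046). Leaving out 1 library in turn kept each of these calls in 1 of 6 cases, with adjusted p up to 0.176 for MT1F and 0.182 for MT1G. MT1F was lost without vehicle replicate 1 or 3 or any of the Menthae Herba libraries, and MT1G without any vehicle library or Menthae Herba replicate 1 or 3. The calls of MT1E, MT1X, MT2A and SLC39A10 were kept in all 6 cases. DESeq2's own test also called these 4 and gave no adjusted p for MT1F and MT1G.

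SLC39A10, a zinc importer of the plasma membrane, moved the other way. It had 36.6, 37.1 and 37.4 CPM in vehicle and 47.9, 52.4 and 51.3 CPM after Menthae Herba, with no overlap. It rose by 0.45 ± 0.07 on the log2 scale (edgeR, adjusted p = 2.78e-06; means of 37.0 ± 0.408 and 50.5 ± 2.36 CPM, n = 3 each).

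MTF1, the metal-sensing activator, had 44.9, 44.3 and 42.5 CPM in vehicle and 44.3, 46.0 and 44.4 CPM after Menthae Herba, so its groups overlapped. The log2 difference was 0.03 ± 0.05, with a 95% interval of -0.07 to 0.13 (edgeR, adjusted p = 0.768). The exporter SLC30A1, known like the metallothioneins as an MTF1 target, had 31.4, 33.8 and 33.5 CPM against 35.6, 32.2 and 31.8 CPM. Its log2 difference was 0.01 ± 0.06, with an interval of -0.12 to 0.14 (edgeR, adjusted p = 0.95), which does not overlap with the intervals of MT1E, MT2A and MT1X. SLC39A4, the intestinal importer, had 21.6, 20.9 and 21.5 CPM in vehicle and 20.2, 17.5 and 19.5 CPM after Menthae Herba, a log2 difference of -0.16 ± 0.07 that missed the threshold (edgeR, adjusted p = 0.16).

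**Figure D2:**
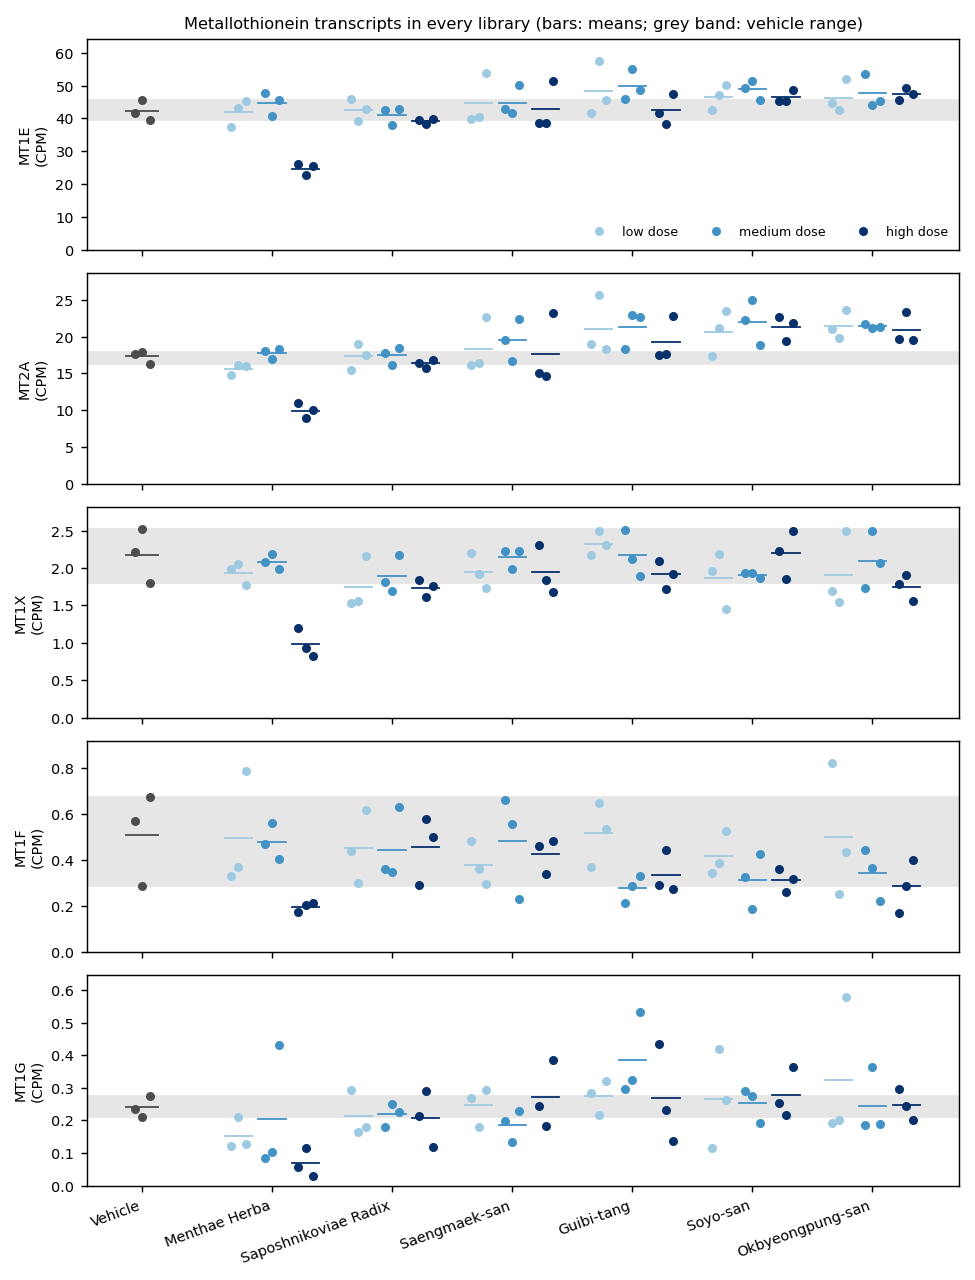
Level of each metallothionein transcript in CPM (vertical axes, from 0) in the 57 libraries by extract (horizontal axis); each point is 1 library, short bars are group means, colours are doses, and the grey band is the range of the 3 vehicle libraries. The 3 Menthae Herba high-dose libraries lie below all others for MT1E (22.6 to 26.1 CPM), MT2A and MT1X, and overlap with others for MT1F and MT1G.

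Set against all other libraries, the 3 Menthae Herba high-dose libraries lay below every one of the other 54 for MT1E (at most 26.1 CPM against at least 37.3), MT2A (at most 10.9 against at least 14.7) and MT1X (at most 1.19 against at least 1.45). Of all genes tested, 0.616% had these 3 libraries below the rest. For SLC39A10 they lay above the rest, at 47.9 CPM or more against at most 43.5, as did 0.804% of all genes. MT1F, MT1G, MTF1, SLC30A1 and SLC39A4 overlapped with other libraries. Vehicle libraries have a name prefix of their own, and a difference tied to it cannot be told apart from one of treatment. Menthae Herba and vehicle libraries were all in the earlier part, so the part of the numbering did not differ between them. The mitochondrial share did, and without the mitochondrial genes the MT1E and MT2A differences were -0.78 and -0.80. That step takes out only the weight of these genes in the scaling, and other links with the share were not tested.

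The lower doses of Menthae Herba did not show this pattern. At the medium dose MT1E had 47.7, 40.7 and 45.7 CPM, and at the low dose 37.3, 43.2 and 45.3 CPM, both overlapping with vehicle. The log2 differences from vehicle were 0.08 ± 0.11 and -0.01 ± 0.11 for MT1E (edgeR, adjusted p = 0.825 and 0.987) and 0.04 and -0.14 for MT2A (adjusted p = 0.951 and 0.766). MT1X differed by -0.07 and -0.17 and SLC39A10 by 0.09 and 0.10, none past the threshold. In both comparisons 1 of the 9 genes was called, SLC30A1, which was higher. At the medium dose 0.739% of all genes were called and at the low dose 0.0587%, that is 10 genes with SLC30A1 among them. Leaving out 1 library in turn kept each of the SLC30A1 calls in 1 of 6 cases. The adjusted p of edgeR then reached 0.334 at the medium and 0.435 at the low dose. With DESeq2's size factors the low-dose call was also lost (edgeR, adjusted p = 0.054).

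The comparison of the high with the low dose of Menthae Herba does not involve vehicle. In it 5 of the 9 genes were called, against 2.36% of all genes. MT1E differed by -0.77 ± 0.12 (edgeR, adjusted p = 3.67e-05), MT1X by -0.97 ± 0.18 (0.000275), MT2A by -0.66 ± 0.15 (0.00892) and SLC39A10 by 0.35 ± 0.06 (0.000392). SLC30A1 also was lower at the high dose, with 35.6, 32.2 and 31.8 CPM against 43.0, 40.0 and 38.2 CPM at the low dose and no overlap (log2 difference -0.28 ± 0.06; edgeR, adjusted p = 0.00475). In this comparison 22.2% of all genes had no overlap. The MT2A call was lost without Menthae Herba high-dose replicate 2 (adjusted p = 0.0803), and that of SLC30A1 without low-dose replicate 1 or high-dose replicate 3. None of the 9 genes was called between the high and low doses of the other 5 extracts by edgeR. Of all genes 0.0293% were called with Saposhnikoviae Radix, 0.0235% with Saengmaek-san, 0.352% with Guibi-tang, 0.129% with Soyo-san and 0.00587% with Okbyeongpung-san. At an unadjusted p under 0.05 there were 2 of the 9 genes for Saengmaek-san, 1 for Guibi-tang and 0 for the other three. DESeq2's own test called 0 of the 9 genes in these 5 comparisons.

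Between extracts at the high dose, 15 pairs were compared and 27 of 135 tests of the 9 genes were called, beside 2.67% of all tests. Every pair with Menthae Herba had calls: 4 of 9 genes against Saposhnikoviae Radix (1.1% of all genes), 5 against Saengmaek-san (1.64%), 4 against Guibi-tang (1.44%), 6 against Soyo-san (8.62%) and 6 against Okbyeongpung-san (11.8%). These pairs share the same Menthae Herba libraries. In each of the 5, MT1E, MT1X and MT2A were lower and SLC39A10 higher with Menthae Herba.

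Against Saposhnikoviae Radix, the only other extract whose libraries were all earlier-numbered, MT1E differed by -0.67 ± 0.12 (edgeR, adjusted p = 0.000732), MT2A by -0.72 ± 0.15 (0.00549), MT1X by -0.82 ± 0.18 (0.00626) and SLC39A10 by 0.26 ± 0.06 (0.0209). Leaving out 1 library in turn kept the MT1E call in all 6 cases, that of MT2A in 5 (lost without Menthae Herba replicate 2), that of MT1X in 4 (lost without Menthae Herba replicate 2 or 3) and that of SLC39A10 in 1, when Menthae Herba replicate 1 was left out. The difference in MT1E was -0.78 ± 0.12 against Saengmaek-san, -0.77 ± 0.12 against Guibi-tang, -0.91 ± 0.12 against Soyo-san and -0.94 ± 0.12 against Okbyeongpung-san. MT2A differed by -0.80 and -0.94 in the first pair of these formulas and by -1.10 and -1.07 in the second. Soyo-san and Okbyeongpung-san libraries were all later-numbered, and MT1E and MT2A were higher in later libraries, and with a term for the part of the numbering the differences were smaller. MT1E then differed by -0.60 from Soyo-san (edgeR, adjusted p = 0.000238) and by -0.64 from Okbyeongpung-san (5.54e-05), and MT2A by -0.72 (0.00038) and -0.69 (0.000468), so all 4 calls were kept.

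MTF1 was higher with Menthae Herba than with Soyo-san (0.16 ± 0.05; edgeR, adjusted p = 0.0401) and Okbyeongpung-san (0.24 ± 0.05; 0.00177), and MT1G lower (-1.95 and -1.81; adjusted p = 0.0295 and 0.0422). With a term for the part of the numbering none of these 4 calls was kept: MTF1 then differed by 0.05 (edgeR, adjusted p = 0.8) and 0.12 (0.256), and the adjusted p of MT1G was 0.216 and 0.252. The MTF1 difference from Soyo-san also missed the threshold without any 1 of the 6 libraries.

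SLC30A1 was lower with Menthae Herba than with Saengmaek-san (-0.27 ± 0.06; 0.0133), and its difference of -0.21 from Saposhnikoviae Radix and Guibi-tang, -0.18 from Soyo-san and -0.17 from Okbyeongpung-san missed the threshold. The Saengmaek-san call was lost without Menthae Herba replicate 2 or 3 or Saengmaek-san replicate 2. With the numbering term SLC30A1 also was lower than with Guibi-tang (-0.23; edgeR, adjusted p = 0.0265), Soyo-san (-0.27; 0.0319) and Okbyeongpung-san (-0.26; 0.0352), while the difference from Saposhnikoviae Radix still missed the threshold (-0.21; 0.0583). Of the 10 pairs without Menthae Herba, 2 had a call: SLC39A10 was higher with Saposhnikoviae Radix than with Soyo-san (0.23 ± 0.07; adjusted p = 0.0251; 8.39% of all genes called), and MTF1 higher than with Okbyeongpung-san (0.20 ± 0.05; 0.022; 4.42%). Both pairs set earlier-numbered against later-numbered libraries, and with the numbering term the differences were 0.11 (adjusted p = 0.704) and 0.09 (0.977), so neither call was kept.

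**Figure D3:**
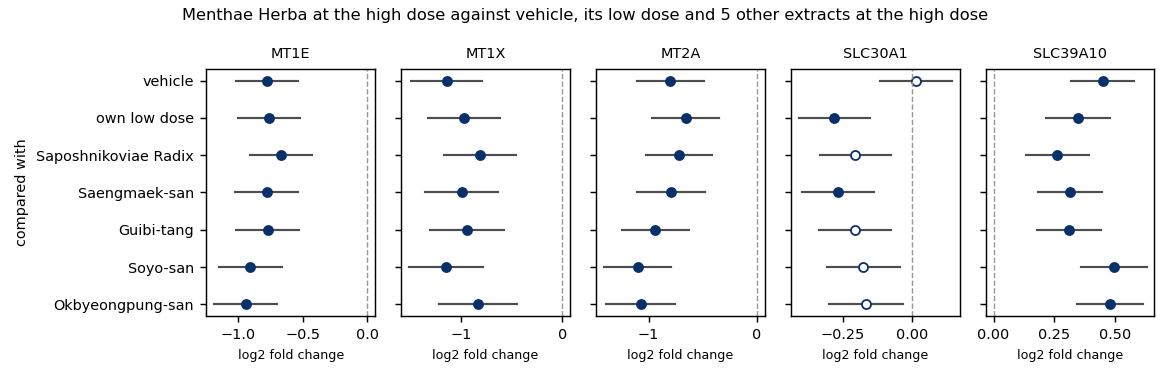
log2 fold change (horizontal axes) of 5 genes for Menthae Herba at the high dose against vehicle, its own low dose and 5 other extracts at the high dose (vertical axis); lines are 95% intervals from edgeR's fit and filled points have an adjusted p under 0.05. MT1E, MT1X and MT2A lie below 0 and SLC39A10 above 0 in all 7 comparisons, while SLC30A1 is at 0.01 against vehicle and below 0 in the other 6.

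SLC30A1 set vehicle apart from the extracts instead. Its mean of 32.9 ± 1.33 CPM in vehicle (n = 3) was the lowest of the 19 groups, followed by 33.2 ± 2.05 CPM with Menthae Herba at the high dose, whose libraries overlapped with vehicle. The other 17 groups had means from 37.3 ± 0.504 CPM (Okbyeongpung-san high) to 40.6 ± 0.792 CPM (Saengmaek-san low), and no library of theirs was within the vehicle range. The next group in this order, Okbyeongpung-san at the high dose, did not overlap with Menthae Herba at the high dose, whereas neighbours further up all overlapped. For 31% of all genes Menthae Herba and Okbyeongpung-san did not overlap at the high dose.

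Over the 54 extract libraries SLC30A1 ranged from 31.8 to 43.9 CPM with a median of 38.4, and 52 of the 54 were above the highest vehicle library (33.8 CPM). Of all genes tested, 0.475% had as many extract libraries above vehicle. Between the 18 extract groups and vehicle, which share the same 3 vehicle libraries, 10 comparisons were called, all higher. At the high dose these were Saengmaek-san (log2 0.28 ± 0.06; edgeR, adjusted p = 0.00871) and Soyo-san (0.19 ± 0.07; 0.0439), at the medium dose Menthae Herba (0.26), Saengmaek-san (0.26) and Soyo-san (0.21), and at the low dose Menthae Herba (0.29), Saposhnikoviae Radix (0.29), Saengmaek-san (0.30), Soyo-san (0.27) and Okbyeongpung-san (0.22).

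The differences that missed the threshold were of like size, 0.18 to 0.22 on the log2 scale, outside Menthae Herba at the high dose. Between the high and low doses of the other 5 extracts SLC30A1 differed by -0.08 to 0.0019 on the log2 scale, with no call. The count of 10 depends on vehicle: without vehicle replicate 1, the lowest library, it was 0, without replicate 2 it was 3 and without replicate 3 it was 2, while the differences themselves stayed between -0.02 and 0.32. DESeq2's size factors gave 7 calls, the replicate block 16 and a term for the part of the numbering 16. The mitochondrial share was 12.77% to 13.47% in vehicle and 11.07% to 12.12% with Menthae Herba at the high dose. The highest shares were in Guibi-tang low replicate 1 (13.87%) and Okbyeongpung-san medium replicate 2 (13.74%). SLC30A1 was at 38.5 and 36.7 CPM in these 2 libraries. Without the mitochondrial genes 9 comparisons were called. Whether the share bears on SLC30A1 was not tested. Vehicle also differs from every extract in the prefix of its library names, which cannot be told apart from treatment here.

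SLC39A4 (GRCh38, chr8:144409742-144416895, minus strand), which imports zinc at the apical side of the gut epithelium, had its highest group mean in vehicle. Vehicle had 21.6, 20.9 and 21.5 CPM, a mean of 21.4 ± 0.376, and the 54 extract libraries reached at most 21.2 CPM with a median of 18.9. Of these, 52 lay below the lowest vehicle library, as in 1.27% of all genes tested. The log2 difference was negative in all 18 comparisons with vehicle, from -0.27 to -0.08, and 3 were called: Saengmaek-san high (-0.26 ± 0.07; edgeR, adjusted p = 0.0362), Soyo-san high (-0.22 ± 0.08; 0.0405) and Soyo-san medium (-0.27 ± 0.08; 0.0162). Without vehicle replicate 1 or 3 the count was 0, without replicate 2 it was 1, and DESeq2's own test and no filter on low counts gave 6 each. With a term for the part of the numbering 1 call was kept, that of Saengmaek-san (-0.25; edgeR, adjusted p = 0.0306), and the Soyo-san differences were -0.20 (0.169) and -0.25 (0.109). A test of any difference among the 19 groups was not passed (edgeR, adjusted p = 0.131). As for SLC30A1, the separate name prefix of the vehicle libraries cannot be told apart from treatment.

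**Figure D4:**
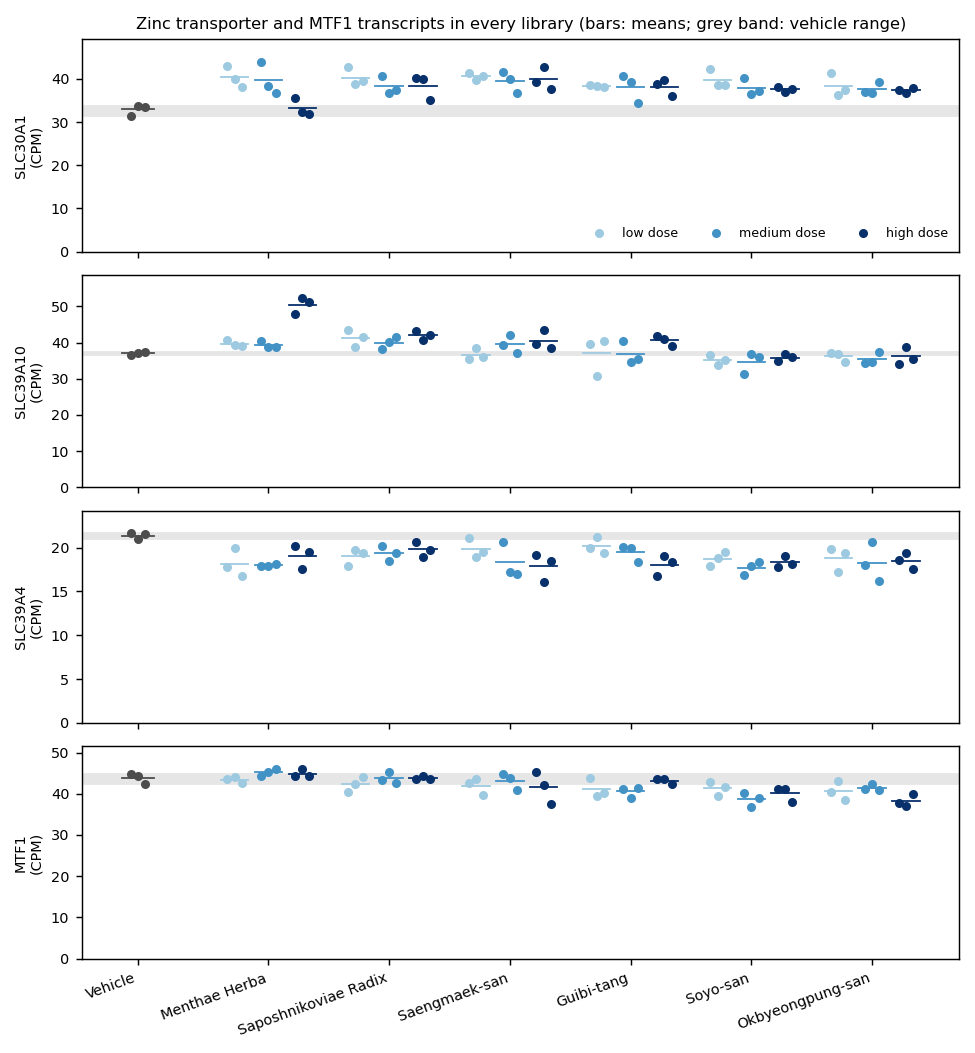
Level of SLC30A1, SLC39A10, SLC39A4 and MTF1 transcripts in CPM (vertical axes, from 0) in the 57 libraries by extract (horizontal axis); each point is 1 library, short bars are group means, colours are doses, and the grey band is the range of the 3 vehicle libraries. For SLC30A1, 52 of 54 extract libraries lie above the band, for SLC39A4 52 of 54 lie below it, and SLC39A10 is highest with Menthae Herba at the high dose.

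Apart from Menthae Herba at the high dose, no metallothionein was called against vehicle in any extract or dose. At the high dose MT1E averaged 39.2 ± 0.705 CPM with Saposhnikoviae Radix, 42.8 ± 7.38 with Saengmaek-san, 42.4 ± 4.62 with Guibi-tang, 46.4 ± 2.05 with Soyo-san and 47.5 ± 1.91 with Okbyeongpung-san (n = 3 each), beside 42.2 ± 3.10 in vehicle. Its log2 differences from vehicle ran from -0.11 to 0.17 and those of MT2A from -0.08 to 0.30, none past the threshold. The 95% interval of the MT2A difference ran from 0.01 to 0.59 with Soyo-san and from -0.02 to 0.57 with Okbyeongpung-san. With no filter on low counts MT2A was called higher in 8 of the 18 comparisons with vehicle, and in a fit on the groups compared alone in 5, and MT1E in 2 and 1, whereas a term for the part of the numbering or DESeq2's own test gave 0 for both. With the numbering term the differences of Soyo-san at the high dose turned to -0.17 for MT1E (edgeR, adjusted p = 0.314) and -0.08 for MT2A (0.753), and those of Okbyeongpung-san to -0.14 (0.554) and -0.11 (0.729).

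Counts of the 9 genes called at the high dose were 0 for Saposhnikoviae Radix (0.499% of all genes), 2 for Saengmaek-san (4.28%), 0 for Guibi-tang (2.26%), 2 for Soyo-san (14.5%) and 1 for Okbyeongpung-san (7.4%). For Saposhnikoviae Radix and Guibi-tang edgeR gave 3 each at an unadjusted p under 0.05, and DESeq2's own test gave 0 and 2 at its adjusted threshold. Without any 1 of the 6 libraries concerned the 2 Soyo-san calls (SLC30A1 and SLC39A4) were lost, and the Saengmaek-san calls ranged from 0 to 2. Those of SLC30A1 and SLC39A4 in Saengmaek-san were both lost without vehicle replicate 1 or Saengmaek-san replicate 2, and SLC39A4 also without vehicle replicate 2 or 3. Over the 6 medium-dose and the 6 low-dose comparisons with vehicle, 5 of 54 tests each were called, beside 2.65% and 2.31% of all tests. At the medium dose these were SLC30A1 in 3 extracts and MTF1 and SLC39A4 in Soyo-san, and at the low dose SLC30A1 in 5 extracts. Both counts were 0 without vehicle replicate 1.

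**Figure D5:**
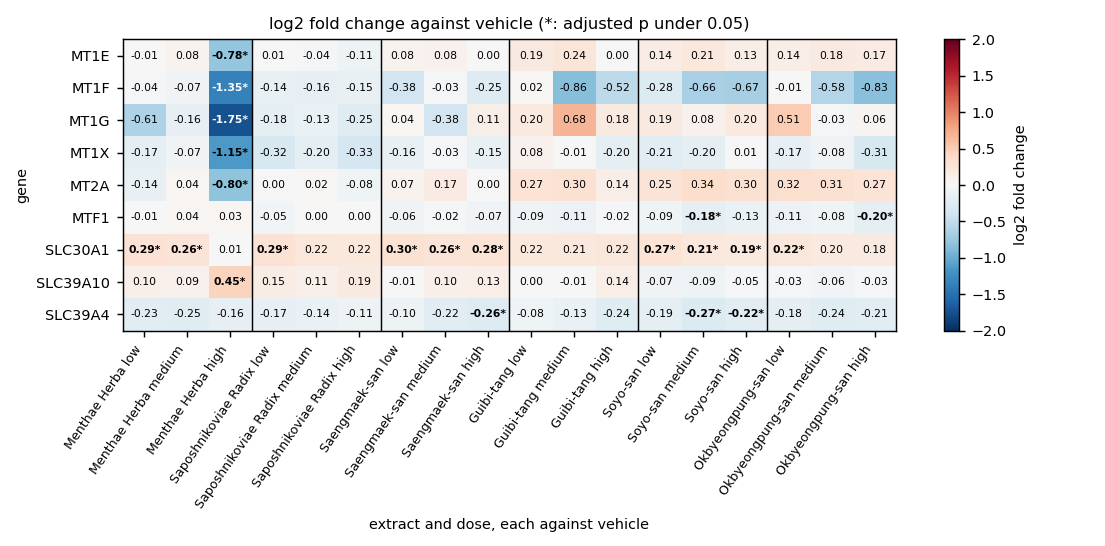
log2 fold change against vehicle (colour and printed value) of the 9 genes (rows) for 6 extracts at 3 doses (columns), from edgeR's fit; bold values with a star have an adjusted p under 0.05. All 18 columns share the 3 vehicle libraries. The 5 metallothioneins are called in Menthae Herba at the high dose (-0.78 for MT1E to -1.75 for MT1G), and SLC30A1 in 10 of the 18 columns.

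MTF1 varied little. Its group means lay between 38.2 ± 1.53 CPM (Okbyeongpung-san high) and 45.2 ± 0.797 CPM (Menthae Herba medium), and each group overlapped with the next in this order. It was lower than vehicle with Okbyeongpung-san at the high dose (37.6, 36.9 and 39.9 CPM; log2 -0.20 ± 0.05; edgeR, adjusted p = 0.0124) and Soyo-san at the medium dose (40.3, 36.7 and 39.0 CPM; -0.18 ± 0.05; 0.0191). The groups did not overlap in either case, as for 30% and 32.9% of all genes in these comparisons. The libraries of both groups were later-numbered and those of vehicle earlier-numbered. With a term for the part of the numbering the differences were -0.09 (adjusted p = 0.433) and -0.07 (0.546), so neither call was kept. The first call was also lost without vehicle replicate 1 or Okbyeongpung-san replicate 2, and the second without vehicle replicate 1 or 2 or Soyo-san replicate 2.

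The numbering itself moved with several of these genes. With treatment in the model, later libraries had higher MT1E (log2 0.31 ± 0.05; edgeR, adjusted p = 9.32e-06) and MT2A (0.39 ± 0.06; 4.32e-06) and lower MTF1 (-0.11 ± 0.03; 0.00101) and SLC39A10 (-0.12 ± 0.04; 0.00833). The other 5 genes did not pass, MT1X among them (-0.09 ± 0.10; 0.567). These 4 of 9 stand beside 29.6% of all genes. The 2 parts were drawn from expression in these same libraries, with these genes included. The p-values of the numbering term are therefore descriptive and not an independent test. The term rests on Saengmaek-san and Guibi-tang, whose libraries were in both parts. In these formulas MT1E was at 38.3 to 45.8 CPM (median 41.0) in 10 earlier libraries and at 45.6 to 57.3 CPM (median 50.7) in 8 later ones. MT2A was at 14.7 to 19.6 CPM in the earlier and 18.4 to 25.6 CPM in the later libraries, whereas MT1X was at 1.72 to 2.51 and 1.68 to 2.49 CPM.

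Thus MT1E and MT2A varied together within treatments, which was not seen for MT1X. MT1X had a median of 56.5 counts per library beside 1269.5 for MT1E, so counting noise may limit its correlations. Over the 57 libraries, as deviations of log2 CPM from the group means, MT1E and MT2A had a Pearson r of 0.81, and MT1E and MT1X one of 0.01. MTF1 ran opposite, with r of -0.70 to MT1E and -0.62 to MT2A, and SLC39A10 had -0.46 and -0.56. These are descriptions over libraries that share the split by numbering. Over the 19 group means r was 0.96 for MT1E with MT2A, 0.88 for MT1E with MT1X and -0.91 for MT1E with SLC39A10. Without the Menthae Herba high-dose group these were 0.89, 0.40 and -0.83.

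A test of any difference among the 19 groups was passed by 6 of the 9 genes (edgeR; 24.6% of all genes). They were MT1E (adjusted p = 4.67e-05), MT1X (0.00106), MT2A (7.48e-05), MTF1 (0.00377), SLC30A1 (0.0055) and SLC39A10 (7.04e-07). MT1F and MT1G, with median coefficients of variation within groups of 32.4% and 33.2%, did not pass (0.254 and 0.212). From the lowest to the highest group mean, MT1E spanned 2.02-fold, MT1X 2.37-fold and MT2A 2.22-fold, while SLC39A10 spanned 1.45-fold, SLC30A1 1.23-fold, SLC39A4 1.21-fold and MTF1 1.18-fold. For each of the 5 metallothioneins the lowest mean was that of Menthae Herba at the high dose, and for MT1E, MT1G, MT1X and MT2A its libraries did not overlap with the next group up, whereas MT1F's did. Above it, neighbouring groups overlapped throughout.

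The wider list of metal-handling genes held 43 genes, of which 27 were tested. Of 10 further metallothionein genes and pseudogenes only MT1A was tested, with 0.651 ± 0.0766 CPM in vehicle and 0.481 ± 0.125 after the high dose of Menthae Herba (log2 -0.43 ± 0.32; edgeR, adjusted p = 0.473). MT3, the metallothionein known from brain, had at most 9 counts in a library. MT1M had 0 counts in all 60 libraries, and MT1B, MT1H and MT4 had at most 2.

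With Menthae Herba at the high dose 4 of the 27 were called higher and 0 lower, beside 8.57% of all genes called in either direction, and the list median was 0.07 beside -0.0041 over all genes. These were the zinc importer SLC39A6 (63.1 ± 1.14 to 72.9 ± 3.74 CPM; log2 0.21 ± 0.04; edgeR, adjusted p = 0.00104), the copper exporter ATP7A (31.6 ± 2.99 to 39.1 ± 1.01 CPM; 0.30 ± 0.07; 0.00161), the copper-zinc superoxide dismutase SOD1 (0.20 ± 0.06; 0.0174) and MEMO1 (0.17 ± 0.05; 0.0342). None of the 5 other zinc exporters tested was called. SLC39A6 was also higher with Saengmaek-san (0.16 ± 0.04; 0.0318) and Soyo-san (0.14 ± 0.04; 0.0222), and SOD1 with Guibi-tang (0.21 ± 0.06; 0.027) and Soyo-san (0.16 ± 0.06; 0.0491). Over the 6 high-dose comparisons 8 of 162 tests of the list were called by edgeR, or 4.94%, which is below the 6.24% of all tests, and 9 by DESeq2's own test. Both Soyo-san calls were lost with the numbering term (adjusted p = 0.13 for SLC39A6 and 0.164 for SOD1). Leaving out 1 library in turn kept the SLC39A6 and ATP7A calls of Menthae Herba in all 6 cases, whereas each of the other 6 calls was lost in at least 4 of 6.

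Genes outside the list were ranked by the Pearson correlation of their 19 group means of log2 CPM with the mean of the 5 metallothioneins, among 10433 genes with a symbol and at least 5 CPM. The most like were ZNF608 (0.89), the reductase DHRS2 (0.88), the superoxide-producing oxidase NOX1 (0.88), the phosphatase DUSP16 (0.87) and CLEC3A (0.86). The most unlike were SLC22A3, an organic cation transporter (-0.92), PHLDA1 (-0.87), the lipoprotein receptor LRP8 (-0.86), CEMIP (-0.86) and TIPARP, a known aryl hydrocarbon receptor target (-0.86). Menthae Herba at the high dose was behind much of this ranking. Without that group r fell to 0.66, 0.56, 0.27, 0.41 and 0.19 for the former and to -0.73, -0.55, -0.36, -0.36 and -0.34 for the latter. As deviations from the group means over the 57 libraries, r was 0.259, 0.101, 0.078, 0.044 and -0.016 for the former. For the latter it was 0.006, -0.183, -0.15, -0.206 and -0.205. NOX1, for instance, had 14.9 CPM in vehicle and 8.44 CPM with the high dose of Menthae Herba, and TIPARP 78.9 and 124.9 CPM.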

How the data were processed

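Per the labels' protocols, directional libraries of HT29 RNA were read on an MGIseq machine, with 100 bp from both ends. The authors deposited RSEM expected counts per Ensembl gene. FastQC 0.11.9, Trim Galore 0.6.5, STAR 2.7.3a, RSEM 1.3.3 and GRCh38 (hg38) are named in the submitters' processing notes, whereas the sources used here do not give the annotation release or the strand setting. Of the deposited values above 0, 27.7% were not whole numbers, and all were rounded before testing.

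Columns were matched to samples through the sample descriptions, with 0 columns left unused. In R 4.3.3, edgeR 4.0.16's filterByExpr kept 17049 genes with 99.95% of counts, TMM scaled the libraries, and edgeR's robust quasi-likelihood test ran in 1 fit over 57 libraries and 19 groups (38 residual degrees of freedom). The Benjamini-Hochberg adjustment of each comparison covered all 17049 genes, calls were made at 0.05, and 39 comparisons and a joint test of the groups were made. CPM values use TMM-scaled library sizes. Log2 CPM used a prior count of 2. On simulated counts for Menthae Herba at the high dose against vehicle (17049 genes), 64% of genes changed 1.5-fold and 87% of those changed 2-fold were recovered, and 1.95% of calls were of unchanged genes. The simulation gave each gene the spread typical of its level and held no split by numbering. Rates in the real libraries may be less favourable. Coordinates come from GENCODE 29, which may differ from the submitters' annotation, and promoters from RefSeq.

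The 9 genes, the wider list, the alternatives and the term for the numbering were chosen with earlier results of these data known. Named were the 9 genes, members of the wider list past the threshold at a high dose, and the 5 genes most and the 5 least like the metallothionein mean. Alternatives were DESeq2's size factors, DESeq2 1.42.0's own test, no filter on low counts, a replicate block, a numbering term, earlier-numbered libraries alone, no mitochondrial genes, the groups compared alone, and leaving out each library in turn. All 57 replicate pairs differed by more than counting noise (1.85 to 24.3 times the chi-square expected). Same-numbered libraries had all 3 correlations of their deviations above 0.1 in 1 of 39 comparisons, so the numbers were not taken to pair the libraries in general.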

Additional observations from a re-analysis of the deposited data

Results flagged for a closer look

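Soshiho-tang, with 1 library per dose, entered no comparison. Its SLC30A1 level was above the highest vehicle library at all 3 doses. It was 40.9 CPM at the high, 39.9 CPM at the medium and 40.2 CPM at the low dose, against 31.4 to 33.8 CPM in vehicle, or 1.24, 1.21 and 1.22 times the vehicle mean. These libraries were later-numbered and those of vehicle earlier-numbered, and the numbering term for SLC30A1, from the other extracts, was -0.09 ± 0.04 (SE; edgeR, adjusted p = 0.062).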

How the results depend on the processing

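For the 53 differences of single genes that were called, 572 re-computed values were called in the same direction, 139 had the same direction and missed the threshold, and 0 reversed. Of 298 differences that were not called, 60 changed sign with the numbering term and 9 were called, none of them after a change of sign. With the earlier libraries alone 25 of 167 changed sign, and in a fit on the groups compared 4 of 251. The other settings, leaving out libraries apart, turned 4 to 7 of 298. Calls favour differences far from 0, so these counts do not compare the stability of called and uncalled differences. The SLC30A1 difference between Menthae Herba at the high dose and vehicle (0.01) was -0.0431 to 0.0387 when 1 library was left out, and -0.0199 without vehicle replicate 1. With Menthae Herba at the high dose 4 to 6 of the 9 genes were called under all alternatives, and leaving out 1 library gave 4 to 5. The replicate block gave 6 there too. It gave 1 call for Saposhnikoviae Radix (0 without the block), 1 for Guibi-tang (0) and 2 for Okbyeongpung-san (1) at the high dose, and raised the SLC30A1 calls against vehicle from 10 to 16. With the block SLC30A1 was also called lower with Menthae Herba than with Saposhnikoviae Radix (adjusted p = 0.033), Guibi-tang (0.0287), Soyo-san (0.0329) and Okbyeongpung-san (0.0369) at the high dose. It moved no other count by over 1.5 times.

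Saposhnikoviae Radix at the high dose had 1 call with no filter on low counts, with the numbering term and with the earlier libraries alone, and 2 in a fit on the groups compared. Guibi-tang had 2 with no filter, 1 with the numbering term, 1 with the earlier libraries alone and 2 by DESeq2's own test. Soyo-san had 1 with DESeq2's size factors, with the numbering term and without mitochondrial genes, in place of 2. In a fit on the groups compared Saengmaek-san had 0 in place of 2 and Okbyeongpung-san 4 in place of 1, and with no filter Okbyeongpung-san had 2. The 5 medium-dose calls became 12 with no filter and 9 in a fit on the groups compared, the 5 low-dose calls 9 with no filter, and the 8 calls of the wider list 13 in a fit on the groups compared. The causes were not tested.

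Leaving out 1 library gave 0 to 1 calls for Saposhnikoviae Radix, 0 to 2 for Saengmaek-san, 0 for Soyo-san in all 6 cases, 0 to 1 for Okbyeongpung-san, 0 to 6 over the medium doses, 0 to 5 over the low doses (0 without vehicle replicate 1 in both) and 2 to 9 for the wider list. Over high against low doses the range was 4 to 5, over pairs 21 to 30 and in the joint test 6 to 7. The earlier libraries alone gave no value for Soyo-san, Okbyeongpung-san or the counts over several extracts, and a fit on the groups compared none for the joint test. MT1F and MT1G, with a median of 11 and 7 counts per library, are those that depth limits most.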

Other observations

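In the same Soshiho-tang libraries SLC39A4 was below the lowest vehicle library (20.9 CPM) at all 3 doses, at 16.3 CPM at the high, 18.2 CPM at the medium and 18.8 CPM at the low dose. MT1E was within the vehicle range at each dose, at 40.0, 43.5 and 42.7 CPM. MT2A was within it at the high dose (16.6 CPM) and above it at the medium (19.8 CPM) and low dose (18.8 CPM). MT1X had 1.29, 1.97 and 2.69 CPM from the high to the low dose, on 29, 54 and 54 counts, beside 1.80 to 2.51 CPM in vehicle. SLC39A10 had 35.5, 36.3 and 36.9 CPM, so the rise seen with Menthae Herba at the high dose was not seen there. Each of these is a single library with no replicate.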
